A study of Homo sapiens with 6 samples.

Results

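The arrays compared here followed the mRNA of GM00156 cells between 10 and 30 min after actinomycin D was added. For each probe, the log2 ratio on the 10 min array was subtracted from the log2 ratio on the 30 min array, and the result is called the difference. These are 2 of the 6 arrays of the series. Of the 14080 probes on each array, 13388 were measured on both arrays, and they named 8813 genes. GM00156 is a human cell line kept by the Coriell repository, and the labels do not say what cell type it is. Cells were grown for 10 h with or without the translation inhibitor emetine at 100 µg/ml. Actinomycin D at 5 µg/ml was then given to both the treated and the untreated cells. The block of transcription is therefore shared by both sides of the ratio at 10 and at 30 min. At each harvest, mRNA of emetine-treated cells labelled with Cy3 was hybridised together with mRNA of untreated cells labelled with Cy5. The remaining arrays were harvested at 0 min, 1 h and 8 h, and 1 further array carried mRNA of emetine-treated 0 min cells in both dyes (self-self). No actinomycin D is listed for the self-self array. For the 0 min array the labels conflict, since the channels name treated and untreated cells and the description names treated cells on both sides.

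Emetine stops ribosomes from moving along mRNA, and actinomycin D stops RNA polymerases by binding DNA. After transcription has stopped, an mRNA can only stay or be degraded, and mRNAs of immediate-early genes, cytokines and other regulators are known as short-lived. Many of these carry AU-rich elements, and their decay is known to slow when translation is blocked. Ribosomal protein and respiratory chain mRNAs are known as abundant and stable. The comparison of 10 with 30 min therefore asks which ratios move in the first part of the chase. It gives ratios and not levels, and a ratio can move because the mRNA moved in the treated cells, in the untreated cells or in both.

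Each harvest had 1 array and no replicate, so no test was possible and no p-value is given. Differences of at least 1 log2 unit, a factor of 2 in the ratio, are counted, with the share of all probes or genes past the same limit beside them. The labels do not state which dye is the numerator. A higher ratio is therefore only a higher ratio, and no direction of change in the cells is read from it. Per the labels, the zero of a slide rests on housekeeping genes, so if these shift, all ratios on the slide shift with them. Whether the arrays share the same pair of cultures is not stated. Ratios given in harvest order below run through 0, 10 and 30 min and then 1 and 8 h. The highest ratio on the 1 h array was 2.99, against 5.94 to 7.14 on the other harvest arrays. A low 1 h value of a gene with high ratios elsewhere is therefore not read as a dip in time, and its cause was not tested.

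Most ratios differed little between the arrays. The ratio was at least 1 higher at 30 min for 282 of 13388 probes (2.11%) and at least 1 lower for 216 (1.61%). No single gene symbol was available for 109 of these 282 probes and for 47 of the 216, so the gene counts leave them out. Of all 14080 probes, 446 had several symbols and 2330 none. Averaged over the probes of a gene, 117 of 8813 genes (1.33%) were at least 1 higher and 120 (1.36%) at least 1 lower. At a limit of 0.5 the shares were 11.9% of genes higher (1052) and 7.56% lower (666). The median difference was 0.10 over probes and 0.09 over genes, and 60.6% of probes lay above 0. Within 0.5 of 0 lay 78.2% of probes. The ratios themselves had a robust SD of 0.91 at 10 min and 0.78 at 30 min, against 0.12 on the self-self array. Across the 13388 probes the 30 min ratio followed the 10 min ratio with a slope of 0.826 and a Pearson r of 0.886, which describes probes and not replicates. Among the 282 probes that were higher, 85 moved away from 0, 55 moved toward 0 and 142 changed sign. Among the 216 that were lower, 16 moved away from 0, 89 toward it and 111 changed sign.

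**Figure D1:**
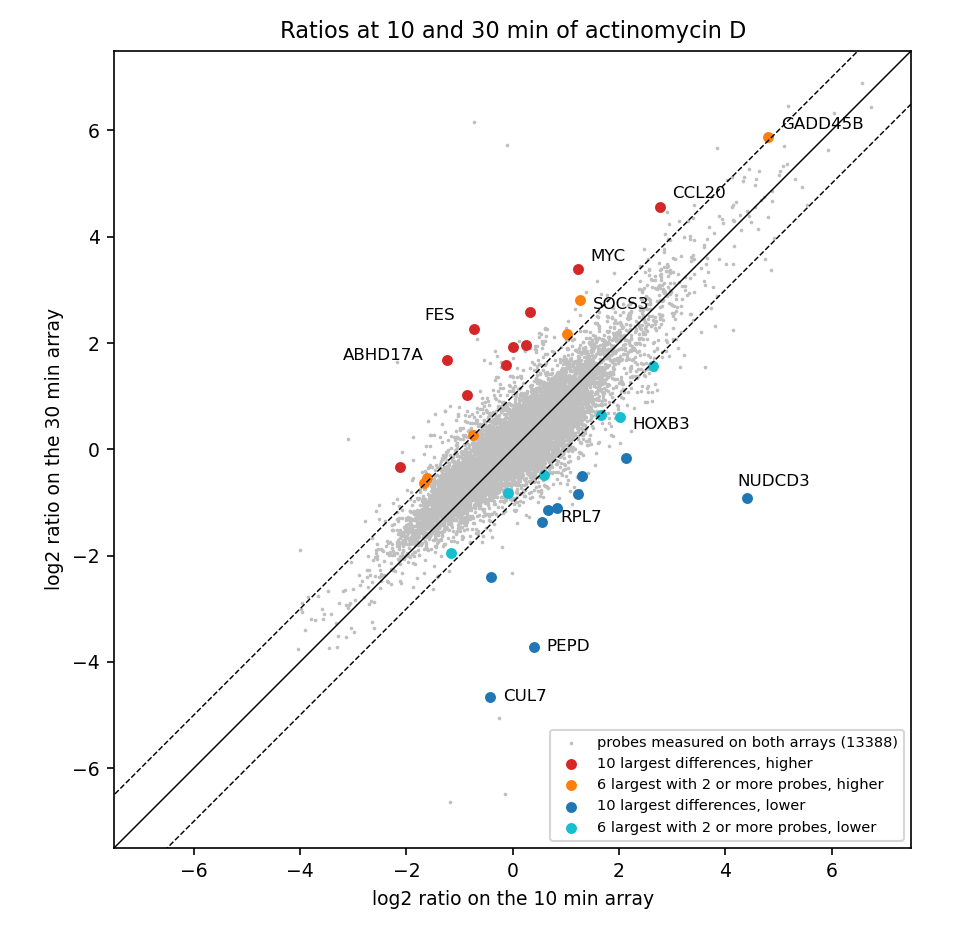
Log2 ratio of each probe on the 10 min array (horizontal) and on the 30 min array (vertical), with grey points for the 13388 probes and coloured points for the mean of each gene named by the selection rules. The solid line marks equal ratios and the dashed lines a difference of 1 either way; most points lie between the dashed lines, and NUDCD3, CUL7 and PEPD lie farthest below them among the coloured genes.

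Some genes were printed many times, which shows how far a single spot can be read. A total of 71 genes had 5 or more measured probes, 631 spots in all, and for 68 of them every probe carried the same accession. The SD of the difference between spots of such a gene had a median of 0.178, with quartiles of 0.105 and 0.285. HNRNPA1, an mRNA-binding protein of the splicing machinery, had 9 spots between 0.31 and 0.67. HNRNPD, a factor that binds AU-rich mRNA, had 9 spots between 0.07 and 0.15. In 25 of the 71 genes all spots lay on the same side of 0, and 23 of these were above 0. No gene reached 1 in the median over its spots. The highest medians were those of the chaperone HSP90AB1 at 0.64 (9 spots, SD 0.198), HNRNPA1 at 0.52 and the glycolytic enzyme PFKP at 0.51. The lowest were METAP2, a methionine aminopeptidase, at -0.39 and CHAF1B, a subunit of chromatin assembly factor 1, at -0.29 (SD 0.971). SF3A1 came next, also at -0.29, with an SD of 0.075. METAP2 and SF3A1 had all spots below 0.

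Single spots nevertheless passed the limit. Of the 631 spots, 11 were at least 1 from 0, with 2 higher and 9 lower. For none of these 11 did the other spots of the gene have a median of at least 0.5 on the same side. One spot of SDHA, a subunit of succinate dehydrogenase, differed by -6.34, while the other 8 had a median of 0.24 and 7 of the 9 were above 0. One spot of UQCRC2, a core protein of respiratory complex III, differed by -5.44 while the other 8 had a median of 0.05. The alpha-tubulin TUBA1A had 1 spot at 2.11 and 8 spots between 0.31 and 0.53. CHAF1B was the exception in having 3 spots past -1 (-1.10, -1.85 and -2.03), but its other spots reached 0.67 on the positive side. These genes are a minority that the array's design repeats, and their spots show spot error within a pair of slides, not the spread between cultures.

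**Figure D2:**
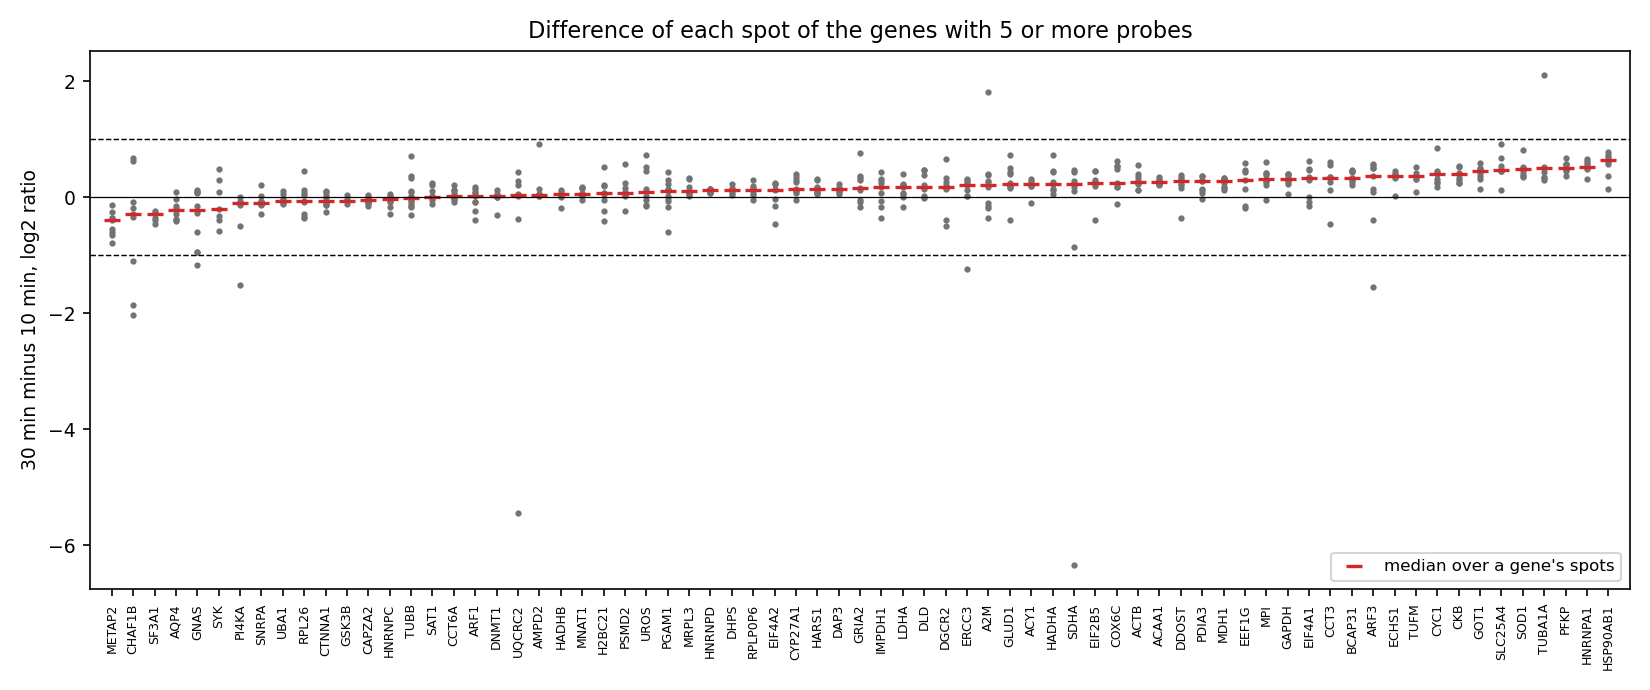
Difference between 30 and 10 min for each spot (grey points, vertical axis in log2 units) of the 71 genes with 5 or more probes, ordered by the median over a gene's spots (red bars). Dashed lines mark 1 and -1; all 71 medians lie between them, from -0.39 for METAP2 to 0.64 for HSP90AB1, and 11 of the 631 spots lie outside.

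Genes with fewer probes followed the same pattern. Over all 1564 genes with more than 1 probe, the pooled SD between probes of a gene was 0.416, against an SD of 0.452 for the difference of the same 3778 probes taken singly. For the 1350 genes with exactly 2 probes, the probes correlated at r = 0.165 in the difference. They correlated at 0.607 in the 10 min ratio and at 0.604 in the 30 min ratio. In 778 of these pairs (57.6%) both probes lay on the same side of 0 in the difference. The difference was past 1 for 3.10% of the 7249 genes with a single probe and for 0.767% of those with several.  For 44 genes every one of at least 2 probes was 0.5 or more higher, and for 18 every one was 0.5 or more lower.

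The largest differences over all genes measured on every array came from single probes. On the higher side they were FES (2.99), ABHD17A (2.92), MIA2 (2.26), MYC (2.16), PRAME (1.92), SNAPIN (1.87), CCL20 (1.8), TRIB2 (1.78), MAP3K1 (1.71) and BICDL1 (1.71). FES, a tyrosine kinase, had ratios of -0.12, -0.72, 2.27, -0.24 and -0.12 in harvest order, with -0.83 on the self-self array. The 30 min array alone was high for FES, and its self-self value lay outside the central 99% of that array (-0.32 to 0.47). MIA2, a protein of endoplasmic reticulum exit sites, was likewise high only at 30 min, at 2.59 against values from -0.11 to 0.33 at the other harvests. PRAME, a tumour antigen, was at 1.92 at 30 min and between 0.00 and 0.41 at the others. MYC, a transcription factor of growth genes, behaved differently: its ratio was 0.34, 1.23, 3.39, 1.15 and 4.15 in harvest order. CCL20, a chemokine, was at 1.73, 2.76, 4.57, 1.34 and 3.95 in the same order. For MYC and CCL20 the 30 min and 8 h values were the highest and every harvest was on the positive side. The only MAP3K1 probe read -7.56 at 1 h, against values from -0.13 to 1.58 at the other harvests.

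On the lower side the single-probe genes were NUDCD3 (-5.34), CUL7 (-4.24), PEPD (-4.11), GET4 (-2.30), DCTD (-2.07), MRTFB (-1.99), MKI67 (-1.95), GPR143 (-1.91), SLC22A11 (-1.81) and RPL7 (-1.8). NUDCD3, a cofactor of dynein and HSP90, had ratios of -0.55, 4.42, -0.92, 1.84 and -0.88 in harvest order. Here the 10 min value stood out most, and the 1 h value was also high for an array whose highest ratio was 2.99. CUL7, a cullin of ubiquitin ligases, was at -4.65 at 30 min and between -0.42 and 0.06 at the other harvests. PEPD, a dipeptidase that releases proline, was at -3.71 at 30 min and between -0.51 and 0.39 at the others. The lone spots of SDHA and UQCRC2 lay farther out still, and neither CUL7 nor PEPD had a further probe in the comparison. MKI67, a marker of proliferating cells, was at 0.02, 0.84, -1.11, -0.50 and -0.19 in harvest order. Of the 208 lower probes measured at every harvest, the 10 min value was farther than the 30 min value from the median of the other harvests in 140 (67.3%), near the 61.8% of all probes. Of the 249 higher probes so measured, it was the farther in 108 (43.4%) and the 30 min value in 141.

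Among genes with several probes that all moved by 0.5 or more, SOCS3 stood highest. SOCS3, an inhibitor of cytokine signalling, had probes at 1.46 and 1.6. In harvest order its ratio was 1.27, 1.27, 2.80, 0.83 and 1.57. The 30 min value was the highest of the harvests for both probes. CCN1, a matrix protein induced by serum, had probes at 1.28 and 1.01 and ratios of 0.64, 1.03, 2.17, 0.61 and 4.12 in harvest order. GADD45B, a stress sensor that activates MAP kinase signalling, had probes at 0.82 and 1.30 and ratios of 2.88, 4.81, 5.87, 1.32 and 6.55. CCN1 and GADD45B shared with MYC a positive ratio throughout and their highest value at 8 h. GTF2E1, a subunit of the general factor TFIIE, went from -0.75 at 10 min to 0.27 at 30 min. CLIP2, a microtubule-end protein, went from -1.61 to -0.54, and the membrane protein TMEM98 from -1.67 to -0.63. For these last 2 genes the ratio stayed negative and came nearer to 0.

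The genes with several probes on the lower side began with HOXB3, a homeobox factor, whose probes differed by -2.08 and -0.72. Its probes disagreed on the 10 min array itself, at 3.63 and 0.40. RBM5, a splicing regulator, had probes at -1.47 and -0.69 and ratios of 1.56, 2.64, 1.56, 0.79 and 1.47 in harvest order. MDM2, the ubiquitin ligase of p53, had probes at -1.33 and -0.68 and ratios of 0.95, 1.66, 0.65, 0.77 and 1.58. For both genes the 10 min mean was the highest of the harvests, although 1 of the MDM2 probes was higher at 8 h. B4GALT1, a galactosyltransferase of the Golgi, had probes at -1.03 and -1.12, close to each other, with mean ratios of 0.58 at 10 min and -0.49 at 30 min. AK4, a mitochondrial adenylate kinase, went from -1.17 to -1.96, and PCDH9, a protocadherin, from -0.08 to -0.83.

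Immediate-early transcription factors and their companions had the highest list median. Of 42 genes listed, 35 were measured, and the median difference was 0.46 against 0.09 for all genes. The difference was at least 1 in 6 (MYC, SNAI2, ID3, SNAI1, CCN1 and JUND) and at most -1 in 1 (BHLHE40), against 1.33% and 1.36% of all genes. At 0.5, 17 were higher (48.6%, against 11.9% of all genes) and 5 lower (14.3%, against 7.56%). At equal spread the list median was 0.83. The median ratio of the list in harvest order was 0.89, 1.33, 2.02, 0.86 and 2.82. Its median self-self value was -0.05.

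SNAI2 and SNAI1, the Snail repressors of epithelial genes, differed by 1.38 and 1.28. In harvest order SNAI2 was at -0.64, -0.47, 0.91, 1.02 and 4.61, and SNAI1 at -2.22, -1.70, -0.42, 0.35 and 1.13. In both, each later harvest was higher than the one before. ID3, an inhibitor of helix-loop-helix factors, went from 0.78 at 10 min to 2.12 at 30 min and 5.65 at 8 h, and its relative ID2 differed by 0.95. The AP-1 subunits JUND, JUN and JUNB differed by 1.04, 0.76 and 0.46, and FOS, at 5.09 and then 5.33, differed by 0.24. With both arrays brought to equal spread these 4 differences were 1.02, 1.44, 1.09 and 0.98, in the same gene order.

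EGR and NR4A factors lay on both sides of 0. The zinc finger factors EGR1, EGR3 and EGR4 differed by 0.14, -0.93 and -0.30, and the orphan nuclear receptors NR4A1, NR4A2 and NR4A3 by 0.70, -0.58 and -0.94. NR4A3 had ratios of 4.63, 5.54, 4.6, 1.38 and 4.97 in harvest order. EGR4 had the largest 10 min ratio of the array, 6.74, and 6.44 at 30 min. Differences at ratios of this size moved with the spread of the arrays. At equal spread, EGR3 and NR4A3 differed by -0.32 and -0.22, and EGR4 turned to 0.66, while EGR1 went to 0.75. BHLHE40, a circadian repressor, kept -0.99 on that scale, from 1.72 at 10 min to 0.63 at 30 min in the deposited values.

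**Figure D3:**
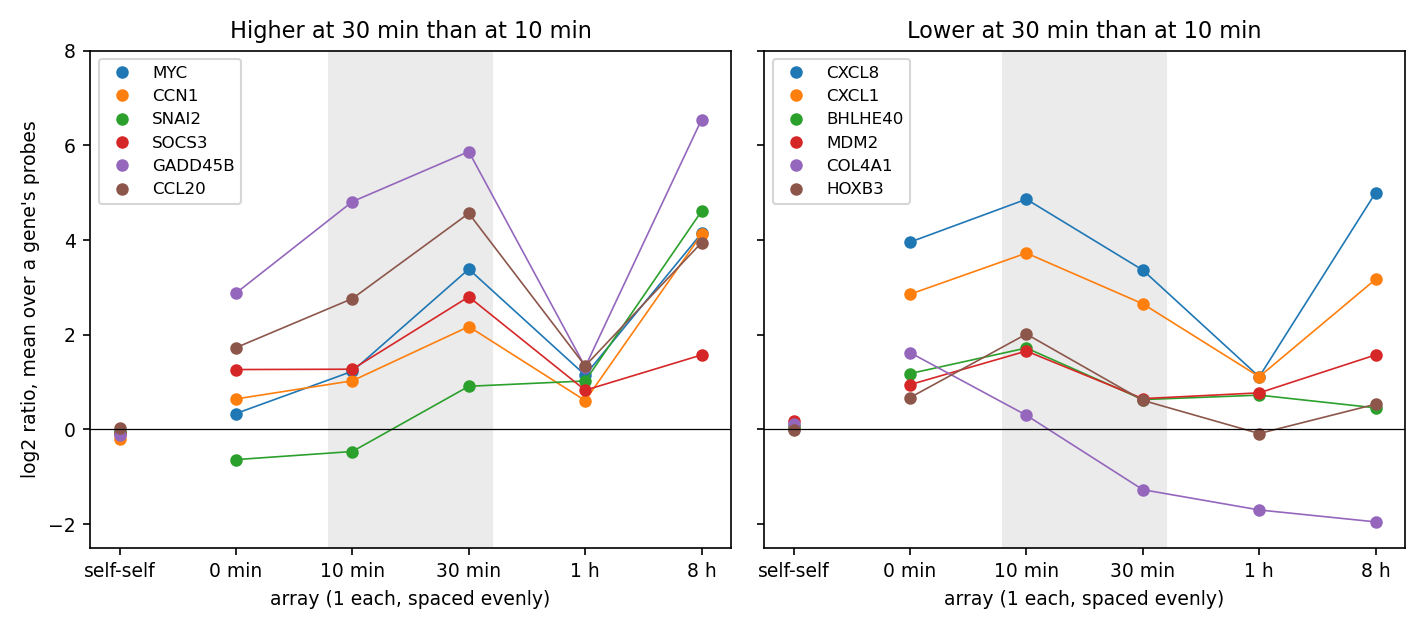
Mean log2 ratio over a gene's probes on each array (vertical), for 6 genes higher and 6 genes lower at 30 min than at 10 min; each point is 1 array, the arrays are spaced evenly and not by time, and the 10 and 30 min arrays are shaded. MYC goes from 1.23 to 3.39 and CXCL8 from 4.86 to 3.37, and all genes shown lie near 0 on the self-self array. GADD45B, CCL20, CXCL8 and CXCL1 lie between 1.11 and 1.34 at 1 h, where no ratio on the array exceeds 2.99.

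Inhibitors that feed back on signalling had a median difference of 0.21 over 25 of 30 genes, with 2 at least 1 higher and none 1 lower, against 1.33% and 1.36% of all genes. Besides SOCS3, the second was SMAD7, the inhibitor of TGF-beta receptors, at 1.67 and then 2.92. The MAP kinase phosphatases DUSP6 (0.82) and DUSP5 (0.73) were also on the higher side. SPRY1, an inhibitor of receptor tyrosine kinase signalling, was lowest, at -0.71. Members of the NF-kB pathway had a median of 0.19 over 21 of 26 genes (0.39 at equal spread), and on the deposited scale none reached 1. MAP3K14, the kinase of the noncanonical pathway, differed by 0.68 and the inhibitor NFKBIE by 0.60, and at equal spread by 1.19 and 1.30. TRAF1, an adaptor of TNF receptors, differed by 0.41, or 1.08 at equal spread. NFKB1, the p50 subunit, went from 2.65 to 1.72, and the inhibitor NFKBIA, at 4.89 and 4.67, differed by -0.22 as deposited and by 0.46 at equal spread.

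The median was -0.06 for cytokines and chemokines whose mRNA is unstable, with 31 of 36 genes measured. The counts were 1 higher and 2 lower at a limit of 1, and 4 and 4 at 0.5 (12.9% each, against 11.9% and 7.56% of all genes). CXCL8, the neutrophil chemokine interleukin-8, had ratios of 3.96, 4.86, 3.37, 1.11 and 5.00 in harvest order. CXCL1, a chemokine of the same family, was at 2.86, 3.73, 2.65, 1.11 and 3.17. Both had a lower ratio at 30 min than at 10 min and at 0 min. On the equal-spread scale they differed by -0.94 and -0.65, so they were below 1 in size there. CXCL3, of the same family, was at 5.03 and 5.23, the cytokine IL6 at 4.48 and 4.28, and LIF at 4.30 and 4.13. At equal spread IL6 and LIF turned to 0.41 and 0.42, and CXCL3 differed by 0.94. HBEGF, a ligand of the EGF receptor, went from 0.59 to -0.40. PTGS2, the inducible cyclooxygenase of prostaglandin synthesis, went from 2.35 to 1.37. CCL20, described above, lay on the opposite side.

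Genes of ribosomes and of respiration were a large and even group on the other side of 0 in ratio. Nuclear genes of oxidative phosphorylation had a median difference of 0.44 over 65 of 80 genes, with quartiles of 0.33 and 0.60. At 0.5, 27 were higher (41.5%, against 11.9% of all genes) and 2 lower (3.08%, against 7.56%), and at 1 the counts were 2 and 0. Their median ratio was -0.91 at 10 min and -0.46 at 30 min, so the median came nearer to 0. NDUFB11, a subunit of complex I, went from -1.58 to -0.49, and COX5B, a subunit of cytochrome oxidase, from -1.23 to -0.32. SDHC, of succinate dehydrogenase, went from 0.90 to 1.93 and so away from 0. The 2 genes lower by 0.5 were SDHA and UQCRC2, each through its 1 outlying spot. Cytosolic ribosomal proteins had a median of 0.41 over 50 of 79 genes, with 19 higher (38%) and 2 lower (4%) at 0.5, and 0 and 1 at the limit of 1. Their median ratio in harvest order was -0.33, -0.91, -0.44, -0.33 and -0.84. Mitochondrial ribosomal proteins had a median of 0.33 over 43 of 102 genes, with 10 higher (23.3%) and 2 lower (4.65%) at 0.5.

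Ribosomal protein mRNAs are known to begin with a C followed by a run of pyrimidines, the TOP motif through which their translation is regulated. The first bases are shown for genes chosen partly by whether such a run is present. The ribosomal proteins were taken from those with it: RPL12, RPS16 and RPL27A with high differences, and FAU and RPS12 below 0. The 2 respiratory genes were those with the largest differences among the members without it. Genes on a single chromosome were left out of both choices. RPL7, the lowest ribosomal member, is not shown. Each line gives 10 bases before and 20 bases from the first start site that RefSeq lists for the gene, GRCh38.p14. Capitals mark a C at the first transcribed base with the unbroken run of C and T after it.
RPL12: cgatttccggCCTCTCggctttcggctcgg
RPS16: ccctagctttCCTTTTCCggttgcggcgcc
RPL27A: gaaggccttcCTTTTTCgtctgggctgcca
FAU: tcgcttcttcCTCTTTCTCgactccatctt
RPS12: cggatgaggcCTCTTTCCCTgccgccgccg
COX5B: tgttcccggaagttttgctgctagtcgcgg
NDUFB11: ccccgcccctgagaccctgcagcaccatct
The windows are at chr9:127451387-127451416 on the minus strand for RPL12, chr19:39435930-39435959 minus for RPS16, chr11:8682782-8682811 plus for RPL27A, chr11:65122115-65122144 minus for FAU, chr6:132814559-132814588 plus for RPS12, chr2:97646052-97646081 plus for COX5B and chrX:47144683-47144712 minus for NDUFB11. RPL12, RPS16 and RPL27A differed by 0.84, 0.83 and 0.82, FAU by -0.14 over 2 probes, and RPS12 by -0.89. All 5 of these were picked for having the run and for lying at the ends of the range of differences. COX5B (0.91) and NDUFB11 (1.08) were picked for lacking it and for their large differences. The median over all oxidative phosphorylation genes was 0.44. The 7 lines therefore do not show how often the run occurs in either group.

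The run, read on the gene's own strand as C at the first base and then at least 4 bases that are C or T, was found at 4.04% of the 27305 starts in the RefSeq table. Of the 7194 measured genes with a listed start, 5.21% had it. It was found in 7 of the 52 oxidative phosphorylation genes among them (13.5%). Of the 42 ribosomal protein genes among them, 30 had it (71.4%). The median difference was 0.46 for those 30 and 0.40 for the 12 without it. Among other genes it was 0.10 for the 345 with the run and 0.10 for the 6807 without. RPL7 and RPS12 were the members lower by 0.5 or more. RPS12 was at 2.24 at 0 min and 2.41 at 10 min, far from the list's median, and RPL7 at 0.67 and then -1.14. Ribosomal protein genes have many near-identical processed pseudogenes, and what each probe hybridises with is uncertain.

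The self-self values moved with these groups. The median self-self ratio was -0.18 for oxidative phosphorylation and -0.14 for cytosolic ribosomal proteins, against 0.01 for all genes. Over the 13309 probes with a self-self value, the difference and the self-self ratio, which share no array, had a Pearson r of -0.26 and a Spearman rho of -0.34. The points share the same printed probes and the same dyes, so these are descriptions. Probes with a self-self ratio from -0.3 to -0.2 had a median difference of 0.44 (388 probes), those from -0.1 to 0 had 0.15 (4044), and those above 0.3 had -0.12 (342). The 86 probes at or below -0.3 broke this order, with 0.29. After a straight line on the self-self ratio was taken off, the list medians stood 0.20 and 0.17 above that of all genes, in place of 0.35 and 0.32. For the immediate-early list it was 0.30 in place of 0.37. That adjustment was chosen after seeing the data, and the part of dye or spot properties in these differences was not tested otherwise.

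**Figure D4:**
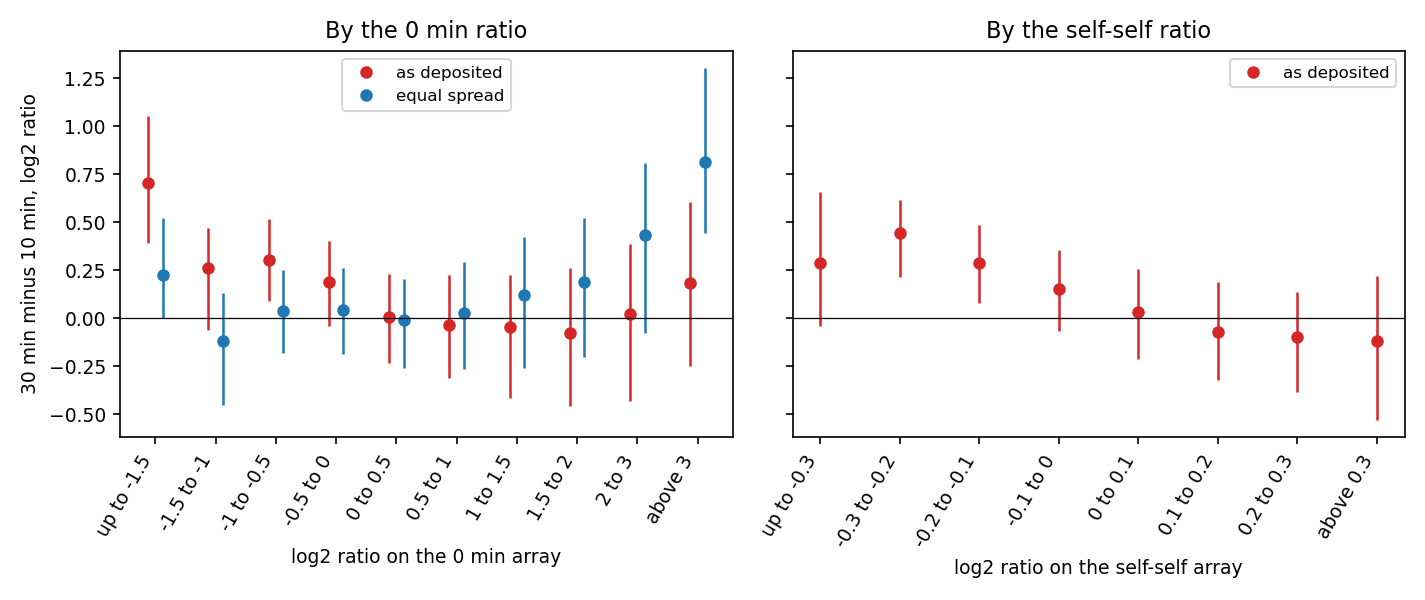
Median difference between 30 and 10 min (points, log2 units; lines span the quartiles over probes) for probes sorted by their ratio on the 0 min array (left) or on the self-self array (right); blue points give the difference after both arrays were brought to equal spread. By the self-self ratio the medians run from 0.44 at -0.3 to -0.2 down to -0.12 above 0.3, while the lowest bin, at or below -0.3, is at 0.29 (86 probes). The leftmost point on the left rests on 12 probes.

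Sorting by the 0 min ratio, which also shares no array with the difference, gave 0.30 for the probes at or below -0.5 and 0.10 for those above 2. In between, medians lay from -0.08 for ratios of 1.5 to 2 (181 probes) to 0.19 for those of -0.5 to 0 (4513 probes). With both arrays at equal spread the order turned, with 0.03 at the low end and 0.56 at the high end. On the deposited scale the 10 min array had the wider spread of ratios, and the negative probes came nearer to 0 on that scale. Probes above 3 at 0 min, 52 in number, had a median of 0.18 as deposited and 0.81 at equal spread.

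Other lists were nearer to the median of all genes. Genes of the ATF4 program and amino acid supply had a median of 0.28 over 34 genes; ASNS, asparagine synthetase, went from -2.09 to -1.15 and CTH, an enzyme of cysteine synthesis, from -0.69 to 0.56. Proteasome genes had a median of 0.21, led by PSMD4 (0.69) and PSMB4 (0.64). Of the 36, 34 were above 0, as were 60.1% of all genes, and 30 were above the median of all genes. Tubulins had a median of 0.22 over 13 genes. Among them TUBA4A went from -3.85 to -2.77, TUBA3C from -3.96 to -2.98 and TUBA1A from -2.90 to -2.28, while the equal-spread differences were 0.48 for TUBA4A and 0.36 for TUBA3C. The TUBA1A means include its outlying spot, and the medians over its spots were -2.88 at 10 min and -2.37 at 30 min. Alpha-tubulin sequences are close to each other, so their probes may share signal. Nonsense-mediated decay targets, mRNAs that are degraded during translation, had a median of 0.20 over 29 of 44 genes, with 10 higher (34.5%, against 11.9% of all genes) and 0 lower (against 7.56%) at 0.5. ARRDC3, an arrestin-like adaptor, led them, from -1.0 to 0.19, followed by GADD45B. For 18 commonly used reference genes the median was 0.22, and 0.04 at equal spread.

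Matrix genes spread in both directions. Over 49 measured collagens, matrix and fibroblast genes the median was 0.17 (-0.08 at equal spread), with 9 higher (18.4%) and 8 lower (16.3%) at 0.5, against 11.9% and 7.56% of all genes. COL4A1, a basement membrane collagen, had ratios of 1.62, 0.30, -1.27, -1.70 and -1.95 in harvest order, lower at each harvest than at the one before. COL16A1 was at 2.44, 1.96, 0.83, -0.05 and 0.21, and CALD1, which binds actin, differed by -0.97 over 4 probes that ranged from -1.65 to -0.25. THBS2, a matrix protein that limits vessel growth, went from -1.25 to -0.23. Replication-dependent histones had a median of 0.14 over 16 genes, and H4C5 went from 4.75 to 3.58. T and NK cell markers had the lowest median of the lists on the deposited scale, -0.14 over 22 genes (at equal spread DNA replication genes were lower, at -0.17), led by IL7R, the interleukin-7 receptor, from 2.81 to 1.74. These marker lists name no cell type here, since ratios do not show whether an mRNA is present.

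**Figure D5:**
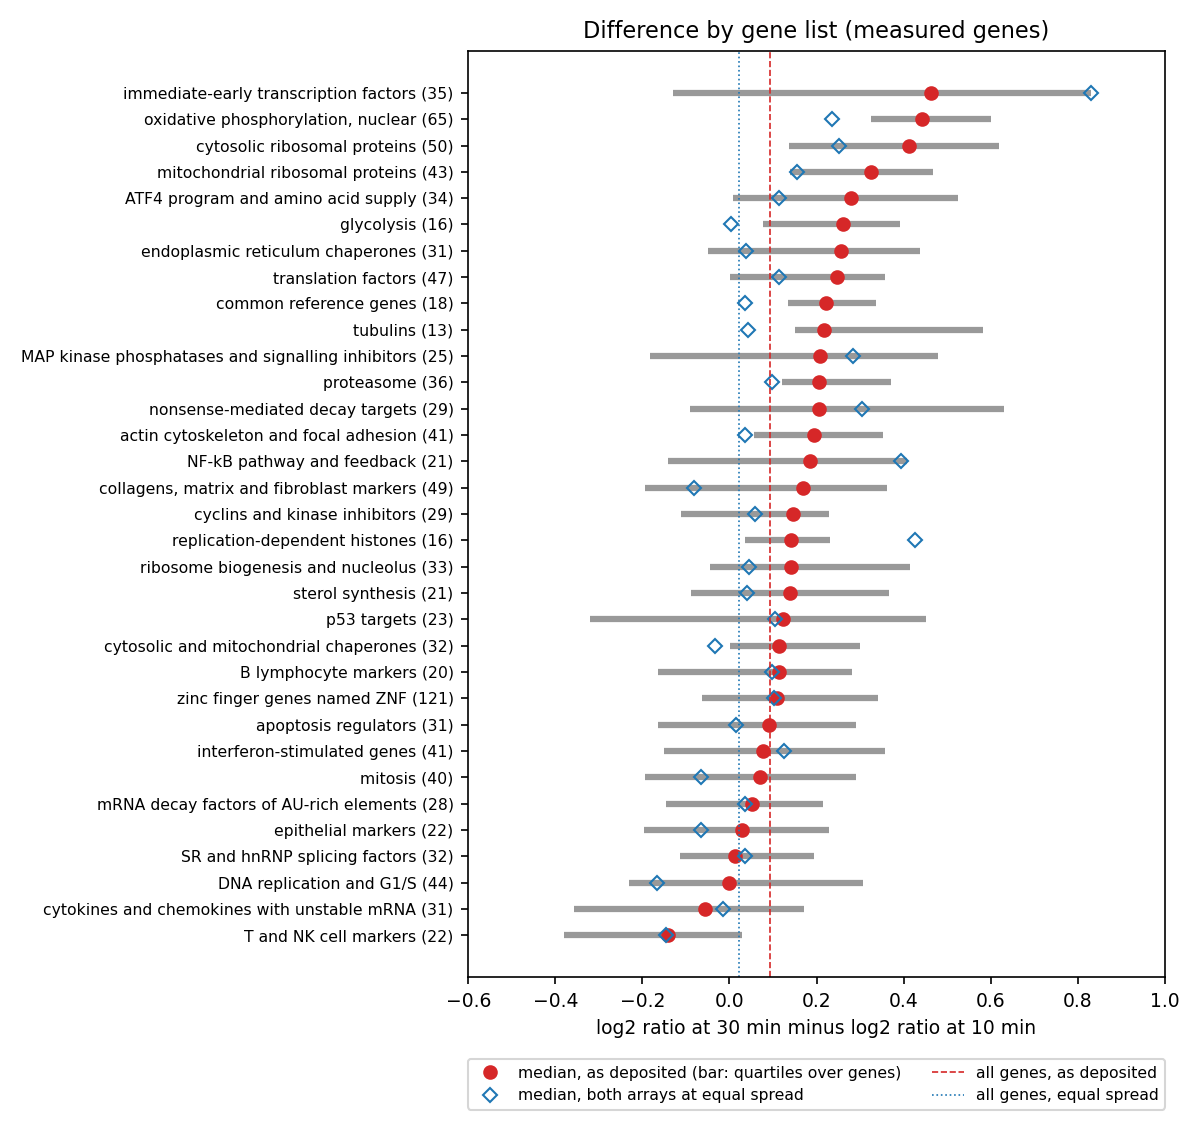
Median difference between 30 and 10 min (red points, log2 units) of each gene list with the quartiles over its genes (grey bars) and the median with both arrays at equal spread (blue diamonds); the number of measured genes is in parentheses and the vertical lines mark all genes. The immediate-early list is highest on both scales (0.46 and 0.83), and the respiratory and ribosomal lists stay above the line of all genes on both.

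Some probes crossed from one side of the self-self range to the other. Of all probes, 80 were below its central 99% at 10 min and above it at 30 min, and 72 went the opposite way. The largest upward crossing, from -0.74 to 6.15, and the next, from -2.18 to 1.65, came from probes without a single gene symbol. Neither of these probes had a measured value on the self-self array or at 1 h. ABHD17A, a depalmitoylating enzyme, went from -1.24 to 1.68 and FES from -0.72 to 2.27. NUDCD3, MKI67 and DCTD, the deoxycytidylate deaminase, crossed downward. DCTD was at 1.23 at 10 min and between -0.84 and -0.33 at the other harvests. Among the largest crossings downward was also 1 of the 9 CHAF1B spots, at 1.26 and then -0.77, although the median of its other spots was -0.24 in the difference.

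The difference between 8 h and 0 min, which shares no array with that between 30 and 10 min, gave a separate view of the same probes. Over 13218 probes the 2 differences correlated at r = 0.12 and rho = 0.05. The probes at least 1 higher at 30 min had a median 8 h minus 0 min difference of 0.30 (256 probes, 61.7% above 0). Those at least 1 lower had -0.04 (209 probes, 47.4% above 0), and all probes had 0.04 (53% above 0). Of the 16 genes named above for the largest differences on the higher side, 13 were on the same side in both, MYC, CCN1 and GADD45B among them, and 3 were not (PRAME, CLIP2 and TMEM98). Of the 16 on the lower side, 12 were on the same side in both, B4GALT1 and AK4 among them, and 4 were not (MRTFB, GPR143, RPL7 and MDM2). These counts include 8 h minus 0 min differences smaller than the self-self robust SD of 0.12. On the same side these were FES (0.005), MIA2 (0.07), CUL7 (-0.09), RBM5 (-0.08) and SLC22A11 (-0.04). On the opposite side they were PRAME (-0.03) and RPL7 (0.09). The 8 h minus 0 min difference was 2.09 for MRTFB, 0.63 for MDM2, -1.14 for CLIP2 and -1.09 for TMEM98. CXCL8, lower at 30 min, also went the other way, from 3.96 at 0 min to 5.00 at 8 h.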

How the data were processed

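Per the labels, spot intensities were background-subtracted and averaged and divided by those of a reference, normalised within each slide on housekeeping genes by a ratio statistics method, and ratios with a quality below 0.5 were discarded. The values deposited by the authors are log2 ratios. The base is read from the table itself: raised as a power of 2, between 99.5% and 100% of an array's values gave multiples of 1 in 10000, within 0.05 of a step. The scanner software and array annotation build are not given in the sources used here. The value that each array repeats most was read as not measured: 2.06 at 411 probes at 10 min and 1.06 at 534 at 30 min. The deposited columns have medians of 0.01 for self-self and, by harvest time, 0.05, 0.08, 0.15, 0.06 and 0.15, so no centring was found, and the direction of the ratio is unknown. No intensities are used here, so the depth behind a ratio is unknown.

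The difference was computed as 30 min minus 10 min for each probe (Python 3.11.15, pandas 2.3.3, numpy 2.4.6; figures with matplotlib 3.10.9), and a gene's value is the mean over its probes. Of 14080 probes, 11304 have 1 gene symbol in the platform annotation, 446 several and 2330 none, and 11282 of the first matched a RefSeq gene by ID. Named genes were, among genes measured on all 6 arrays, the 10 a side with the largest difference; the 6 a side with the largest difference among genes with 2 or more probes, each at 0.5 or more on the same side; the 5 a side that crossed the self-self range; and up to 4 members per list, the largest in difference, plus defining members. Further list members and the genes with 5 or more probes were named after their values were seen. The members and the 33 gene lists were chosen with earlier results of these data known.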

Additional observations from a re-analysis of the deposited data

How the results depend on the processing

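No paired analysis was possible because each harvest has 1 array, and for the same reason no array could be left out. At a limit of 0.5, 1803 probes were higher and 1117 lower, and at 1.5 the counts were 68 and 44. With the repeated values kept they were 444 and 619, since that value is 2.06 on one array and 1.06 on the other. Centring both arrays on their median gave 237 higher and 267 lower, and equal spread gave 286 and 263, with 230 of the 282 and 187 of the 216 shared. Adjusting for the self-self ratio, chosen after seeing the data, gave 231 and 228, with 209 of the 282 and 173 of the 216 shared. Residuals from the line of 30 on 10 min gave 222 and 185. They shared fewer, 175 of the 282 (62.1%) and 152 of the 216 (70.4%). The median difference of probes at or below -0.5 at 0 min was 0.028 at equal spread and 0.224 when probes were sorted by the 8 h ratio; for those above 2 it was 0.562 and 0.221. Relative to the median of all genes, 6 of the 33 lists changed side at equal spread: collagens and matrix from 0.07 to -0.10, glycolysis from 0.17 to -0.018, cytosolic and mitochondrial chaperones from 0.02 to -0.05, interferon-stimulated genes from -0.02 to 0.10, SR and hnRNP factors from -0.08 to 0.02, and AU-rich decay factors from -0.04 to 0.01. In the residuals from the line of 30 on 10 min, 10 did: these 6 (matrix -0.14, glycolysis -0.045, chaperones -0.06, interferon 0.09, SR and hnRNP 0.02, decay factors 0.03), endoplasmic reticulum chaperones at -0.023, actin cytoskeleton at -0.019, common reference genes at -0.015 and apoptosis regulators at 0.03. With the self-self adjustment 7 did, each staying within 0.06 of all genes. The 32 named genes kept their side in every alternative run for them. The cause of these shifts was not tested beyond how each alternative is built.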

Other observations

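The remaining lists are given here by their medians, to be read against the 0.09 of all genes (0.02 at equal spread). Mitosis genes had a median difference of 0.07 over 40 genes. At a limit of 0.5, 1 was higher (2.5%, against 11.9% of all genes) and 4 were lower (10%, near the 7.56% of all genes). The 4 lower genes were MKI67, CENPE, a kinesin of the kinetochore, at -1.06, NDC80, which ties kinetochores to microtubules, at -0.94, and HMMR, a spindle protein, at -0.91. CENPE went from 0.69 at 10 min to -0.37 at 30 min and NDC80 from 0.94 to -0.01. DNA replication genes had a median of -0.00 over 44 genes and SR and hnRNP splicing factors 0.01 over 32. Targets of p53 had a median of 0.12 over 23 genes and lay on both sides. PLK2, a polo-like kinase, went from 3.29 to 4.29 and BBC3, the cell death activator PUMA, from 2.57 to 3.38, while MDM2 and DDB2, a DNA damage binding protein (-0.78), were lower in ratio.

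Glycolysis genes (16), endoplasmic reticulum chaperones (31) and translation factors (47) had medians of 0.26, 0.26 and 0.25, and at equal spread of 0.00, 0.04 and 0.11. Genes of the actin cytoskeleton had 0.20 over 41, cyclins and kinase inhibitors 0.15 over 29, ribosome biogenesis 0.14 over 33 and sterol synthesis 0.14 over 21. The 121 zinc finger genes named ZNF had 0.11, with 19 higher (15.7%) and 5 lower (4.13%) at 0.5, against 11.9% and 7.56% of all genes. Cytosolic and mitochondrial chaperones had 0.11 over 32, B lymphocyte markers 0.11 over 20, apoptosis regulators 0.09 over 31 and interferon-stimulated genes 0.08 over 41. Decay factors of AU-rich mRNA had 0.05 over 28 and epithelial markers 0.03 over 22.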
